A study of Homo sapiens with 8 samples.

Results

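The enzymes that write and erase methyl groups on histones and on arginine residues were examined exon by exon in 2 human cell lines derived from breast epithelium. The cells were treated with the translation inhibitor emetine. Their genes were chosen by symbol (KDM, KMT, SETD, SUV39H, SUV420H, EHMT and PRMT genes, with EZH1, EZH2, NSD1, WHSC1, WHSC1L1, ASH1L, DOT1L, CARM1 and MLL genes), and their exons are the skipped-exon events that the deposited splicing tables of both lines list. They comprised 394 events of 322 exons in 52 genes, out of 56675 events in 10566 genes listed for both lines. An event is an exon with its 2 flanking exons, so an exon can appear in several events that share junction reads. A further 214 events were listed for MCF10A only and 253 for HMLE TWIST only, among them all events of KMT2A.

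RNA was sequenced from 8 libraries. MCF10A is a non-tumorigenic line of breast epithelium. HMLE TWIST is an immortalised line of the same tissue that overexpresses TWIST from an integrated pBabe-TWIST retrovirus. Cells of either line received DMSO, the solvent, or 10 µM emetine for 24 hours. Each of the 4 groups had 2 replicates, and nothing in the labels says that they were separate cultures, so the spread between these libraries may be technical. The p-values of the main test below rest on a spread shared by all events, and not on that between an event's own libraries. Every HMLE TWIST library carried the TWIST transgene, and no library came from HMLE cells without it. Each value is an average over all cells of a library, so a shift within every cell and a shift in the mix of cells cannot be told apart.

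Between 78412292 and 91259363 junction reads fell on the listed events of a library, and a methylation enzyme event had a median of 198 to 342 reads. Markers of the 2 lines differed strongly. The summed reads over 12 breast epithelial markers, of which 9 had an event in MCF10A and 6 in HMLE TWIST, were 52977 to 76800 in MCF10A libraries and 302 to 928 in HMLE TWIST libraries, in which CDH1, ESRP1 and ESRP2 had 0 to 9 reads in their best-covered event. Those over 9 mesenchymal markers, of which 6 and 9 had an event, were 6790 to 30197 and 179318 to 353502. Both sums were also lower with emetine than with DMSO within each line. Most of their reads came from a few genes, KRT5 and VIM in MCF10A and ITGA6, VIM and FN1 in HMLE TWIST with DMSO. Other markers went the other way, among them KRT17 and FAP in MCF10A and LAMA3, ZEB2 and FAP in HMLE TWIST. The part of these differences in the results that follow was not tested.

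Histone methyltransferases place methyl groups on lysines such as H3K4, H3K9, H3K27, H3K36, H3K79 and H4K20, protein arginine methyltransferases (PRMTs) methylate arginines, and lysine demethylases (KDMs) remove methyl groups from lysines. Many genes of chromatin and splicing regulators also make unproductive transcripts: inclusion or skipping of an exon brings in a premature stop codon, and the mRNA is degraded by nonsense-mediated decay during translation. Emetine blocks translation elongation at the ribosome, and such transcripts are known to accumulate when translation is blocked. Here the inclusion level of an exon is the share of the inclusion form among the inclusion and skipping forms of an event. It runs from 0 to 1 and was computed from junction reads corrected for the effective length of each form. A change is the mean level with emetine minus that with DMSO.

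Tests were limited to events with at least 20 reads in each library compared and at least 10 reads of the rarer form in total. An event was called changed where a quasi-binomial F test gave a Benjamini-Hochberg adjusted p under 0.05 over all events of the table and the level moved by at least 0.1. Of 156 tested methylation enzyme events in MCF10A, 24 were called (15.4%), against 13.8% of all tested events. Inclusion rose in 13 of them and fell in 11, where the background was 8.37% higher and 5.48% lower. Of 179 tested events in HMLE TWIST, 34 were called (19%), against a background of 15%, with 12 higher and 22 lower (background 6.66% and 8.32%). The median change was -0.00176 in MCF10A and -0.00729 in HMLE TWIST, beside -0.000168 and -0.00315 over all tested events. The called share was thus near that of all events, and most enzyme exons moved little. Without the length correction the split was 18 higher and 7 lower in MCF10A, and 18 higher and 13 lower in HMLE TWIST. The F test uses the read counts and is the same without this correction, so only the levels differ. Effective lengths were 100 to 198 for inclusion forms and 99 for skipping forms. By construction, changes of mostly included exons then tend to shrink and those of rare exons to grow. A call lost this way, here and below, reflects the 0.1 threshold only. In the more conservative limma test on log odds, 13 events in MCF10A (background 7.88%) and 22 in HMLE TWIST (background 9.94%) were called. All 24 and 34 called events had a false discovery rate under 0.05 in the authors' deposited table, and in each of them the levels of the 2 DMSO and the 2 emetine libraries did not overlap. The same held for 99.3% and 99.4% of all called events, since the thresholds select for it, and for 67.4% and 69.9% of all tested events.

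Counts of calls are given by enzyme family. Over all tested events, 13.8% were called in MCF10A (8.37% higher, 5.48% lower) and 15% in HMLE TWIST (6.66% higher, 8.32% lower). The families are a grouping made for counting, and the activity of each member, such as SETD3 and SETD5, was not examined. In the group counted under H3K36 (SETD2, SETD3, SETD5, NSD1, WHSC1 and WHSC1L1), 7 of 36 tested events were called in MCF10A, 4 higher and 3 lower. In HMLE TWIST 11 of 40 were called, 5 higher and 6 lower, and many of these were SETD5 events. Lysine demethylases had 7 of 48 (5 higher, 2 lower) and 7 of 45 (4 higher, 3 lower). The H3K9 group had 2 of 12, both higher, in MCF10A and 7 of 18 in HMLE TWIST, where 5 were lower. In the H4K20 group 4 of 6 were called in MCF10A and 2 of 5 in HMLE TWIST, all lower. The H3K4 group had 2 of 16 and 1 of 14, and DOT1L, the H3K79 enzyme, 1 of 2 and 0 of 1. SETD4, SETD6 and SETD9 together had 0 of 3 in MCF10A and 4 of 7 in HMLE TWIST, all lower. Most of the latter were forms of the same SETD6 exon. Arginine methyltransferases had 1 of 22 and 2 of 37, and EZH1 and EZH2, the H3K27 enzymes, had 0 of 11 and 0 of 12. With so few events per family and shared junction reads among them, these counts are descriptions.

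**Figure D1:**
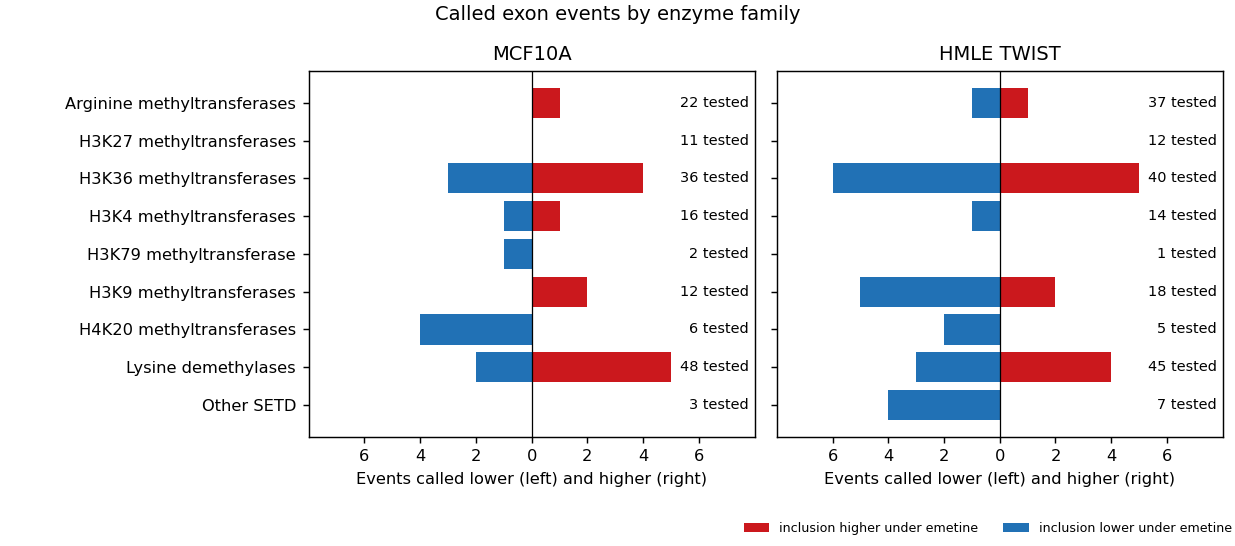
Number of called events per enzyme family in MCF10A (left panel) and HMLE TWIST (right panel), with bars to the right for higher and to the left for lower inclusion with emetine and the number of tested events at the right edge. The H3K36 group as counted here has the most called events in HMLE TWIST (5 higher, 6 lower), many of them of SETD5. The H3K27 group has none in either line. Over all tested events, 13.8% were called in MCF10A and 15% in HMLE TWIST.

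The 14 enzyme events called in both lines moved the same way, as nearly all such events of the tables did. Of 133 events tested in both lines, 23 were called in MCF10A and 27 in HMLE TWIST, and 14 were called in both, which is 60.9% of the former and 51.9% of the latter. Over all events these shares were 61% and 50.7%, and 1760 of the 1783 events called in both lines moved the same way. The 14 events belonged to 14 exons of 8 genes (EHMT2, KDM3A, KDM4C, KDM6A, SETD2, SETD5, SUV39H2 and SUV420H2), of which 8 rose in both lines and 6 fell in both.

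**Figure D2:**
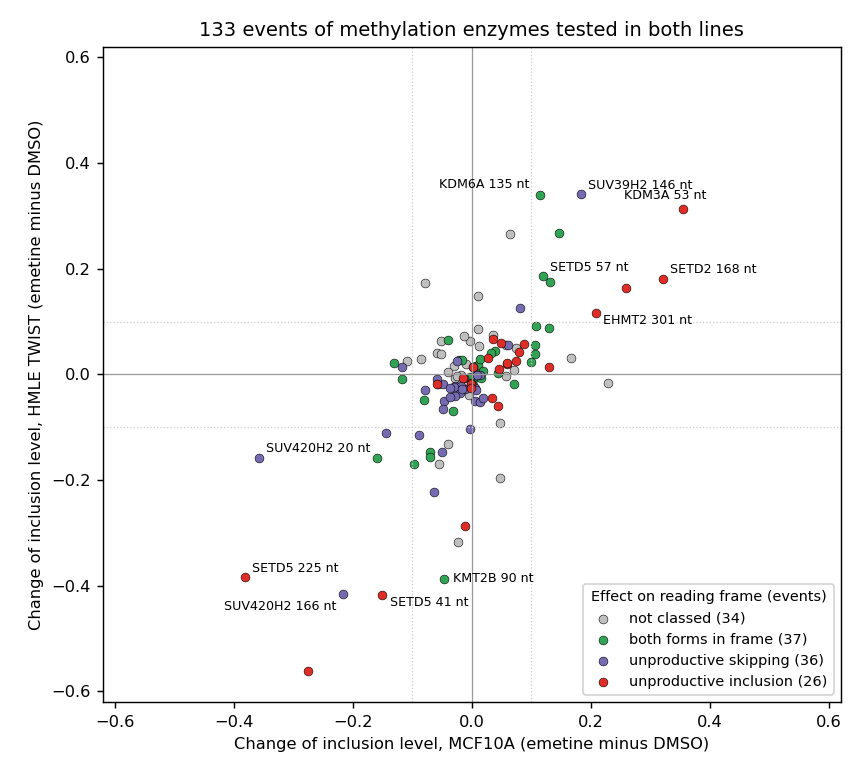
Change of inclusion level (emetine minus DMSO) in MCF10A (horizontal axis) and HMLE TWIST (vertical axis) for the 133 methylation enzyme events tested in both lines, coloured by the effect of the exon on the reading frame, with dotted lines at changes of 0.1. Of the 26 unproductive inclusion events (red), most changed by less than 0.1 in both lines and lie near the centre. SETD2, KDM3A and EHMT2 exons stand out at the upper right and several SETD5 events at the lower left.

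Events were also grouped by the effect of the exon on the reading frame. By GENCODE 29 transcripts, inclusion of an exon gives an early stop that meets the decay rule (a stop more than 50 nt before the last exon junction) in 38 of the 394 events, called unproductive inclusion here, and skipping does so in 134 events. Both forms stay in frame in 82, and 140 could not be classed. Among all tested events of the tables, unproductive inclusion was called higher in 635 and lower in 35 of 3020 events in MCF10A, and higher in 459 and lower in 66 of 2929 in HMLE TWIST. Of the methylation enzymes' unproductive inclusion events, 5 were called higher and 3 lower of 30 in MCF10A, and 4 higher and 4 lower of 28 in HMLE TWIST. All of these falling events were SETD5 exons. Skipping that breaks the frame was called in the direction of more skipping in 4 of 46 events in MCF10A and 9 of 56 in HMLE TWIST (8.7% and 16.1%, against 10.2% and 14% of all tested events of this class), and in the direction of less skipping in 1 and 2 (2.17% and 3.57%, against 1.5% and 1.34%). In-frame events were called higher in 6 and lower in 3 of 41 in MCF10A (14.6% and 7.32%, against 6.7% and 4.48% of all in-frame events). In HMLE TWIST they were called higher in 4 and lower in 4 of 44 (9.09% each, against 5.88% and 6.47%). Most unproductive inclusion exons were rare: of 29 tested exons in MCF10A, 21 had a mean level under 0.1 with DMSO, and the median level was 0.0234 with DMSO and 0.0772 with emetine. In HMLE TWIST, 22 of 27 were under 0.1, with medians of 0.034 and 0.0601. A further 9 exons in each line had an adjusted p under 0.05 for a rise of less than 0.1, and 2 in MCF10A and 3 in HMLE TWIST for a fall of less than 0.1. With changes of any size, 14 of 30 enzyme events rose and 5 fell at that F test threshold in MCF10A, beside 1720 and 97 of all 3020 events of this class. In HMLE TWIST 13 of 28 rose and 7 fell, beside 1427 and 180 of 2929. Small rises were thus common in the whole class.

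Unproductive exons of SETD2, EHMT2 and KDM3A rose with emetine in both lines, and 1 of WHSC1 rose in MCF10A. Those of SETD2 and KDM3A are printed here, because their sequence shows how inclusion brings a stop into the frame. Sequences are those of the GENCODE 29 exon (build GRCh38) with the same length and the same flanking intron lengths as the deposited event, positions are those of the deposited tables (GRCh37 per the submitters' processing notes), and capitals mark the first in-frame stop codon. The KDM3A exon holds no stop in frame: its 53 bases shift the frame, and the stop follows in a later exon.
SETD2 168-nt exon: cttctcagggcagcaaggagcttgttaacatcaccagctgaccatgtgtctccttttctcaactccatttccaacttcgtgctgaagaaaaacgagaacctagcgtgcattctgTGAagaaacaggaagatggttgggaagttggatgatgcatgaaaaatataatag
KDM3A 53-nt exon: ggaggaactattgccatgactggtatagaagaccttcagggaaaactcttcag

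SETD2, the enzyme that trimethylates H3K36, gained a 168-nt exon with emetine in both lines (chr3:47122406-47122573, minus strand). Its TGA stop begins at base 115 of the exon, and an annotated transcript that includes it is a decay target. Levels were 0.0719 and 0.184 with DMSO and 0.421 and 0.476 with emetine in MCF10A. HMLE TWIST had 0.0821 and 0.0777 with DMSO and 0.221 and 0.301 with emetine. Both emetine libraries lay above both DMSO libraries in each line, although the DMSO libraries of MCF10A differed among themselves. The mean rose from 0.128 ± 0.079 to 0.449 ± 0.0389 (SD, n = 2 per group) in MCF10A (F test, adjusted p = 1.5e-14, with limma 0.054) and from 0.0799 ± 0.00309 to 0.261 ± 0.0571 (SD, n = 2 per group) in HMLE TWIST (F test, adjusted p = 1.9e-06, with limma 0.038), on 104 to 339 reads per library. A 283-nt form of the same exon, which shares its skipping reads and 1 splice site, rose by 0.259 and 0.164 (F test, adjusted p = 1.4e-09 and 2.3e-05; limma, 0.075 and 0.048). With emetine, the 168-nt exon was lower in HMLE TWIST than in MCF10A by 0.188 (F test, adjusted p = 2.5e-05, with limma 0.17). The difference between the responses of the lines did not pass the test (difference -0.14, F test, adjusted p = 0.74, with limma 0.81). Here and below, this test compares the responses as log odds of junction reads, whereas the printed difference is one of inclusion levels.

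EHMT2, also named G9a, which methylates H3K9, gained its 301-nt exon, whose inclusion is unproductive. Levels were 0.0901 and 0.131 with DMSO and 0.309 and 0.328 with emetine in MCF10A. In HMLE TWIST levels were 0.0601 and 0.0876 with DMSO and 0.208 and 0.171 with emetine. In both lines the emetine libraries stood apart from the DMSO libraries. The mean rose from 0.111 ± 0.0289 to 0.319 ± 0.013 (SD, n = 2 per group) in MCF10A (F test, adjusted p = 1.6e-11, with limma 0.045) and from 0.0739 ± 0.0194 to 0.19 ± 0.0263 (SD, n = 2 per group) in HMLE TWIST (F test, adjusted p = 1.9e-09, with limma 0.068). For the EHMT2 301-nt exon in HMLE TWIST, the call was lost without the first listed emetine library (change 0.097, adjusted p = 1.8e-06). Without the length correction its change was 0.181 in HMLE TWIST.

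KDM3A, a demethylase of H3K9, showed the steepest rise among the unproductive exons described, in its 53-nt exon (chr2:86687902-86687954, plus strand). This exon was nearly absent from its event with DMSO and reached a similar level in either line with emetine. Levels were 0.0467 and 0 with DMSO and 0.409 and 0.348 with emetine in MCF10A. The HMLE TWIST libraries gave 0.0576 and 0.0361 with DMSO and 0.368 and 0.352 with emetine. The mean rose from 0.0234 ± 0.033 to 0.378 ± 0.043 (SD, n = 2 per group) in MCF10A (F test, adjusted p = 6.5e-20, with limma 0.058) and from 0.0469 ± 0.0152 to 0.36 ± 0.0112 (SD, n = 2 per group) in HMLE TWIST (F test, adjusted p = 1.7e-11, with limma 0.013), on 74 to 343 reads per library. With emetine the lines differed by -0.0186 (F test, adjusted p = 0.82, with limma 0.88).

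WHSC1, also named NSD2, which dimethylates H3K36, was called in MCF10A for its 149-nt exon, whose inclusion is unproductive. Levels were 0.0642 and 0.0704 with DMSO and 0.212 and 0.181 with emetine in MCF10A. Those of HMLE TWIST were 0.0457 and 0.104 with DMSO and 0.111 and 0.0649 with emetine. In MCF10A the emetine libraries lay above the DMSO libraries, whereas in HMLE TWIST the groups overlapped. The change was 0.129 in MCF10A (F test, adjusted p = 0.00024, with limma 0.046) and 0.0132 in HMLE TWIST (F test, adjusted p = 0.81, with limma 0.73), and the difference between the lines did not pass the test (F test, adjusted p = 0.097, with limma 0.53). Without the length correction its change in MCF10A was 0.202.

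Smaller rises of rare unproductive exons, under the 0.1 threshold and so not called, were seen in CARM1, EZH2 and KDM4C. These were chosen for mention after their values were seen. In CARM1, an arginine methyltransferase, a 119-nt exon had levels of 0.00763 and 0.0095 with DMSO and 0.0947 and 0.0699 with emetine in MCF10A. For HMLE TWIST, levels were 0.00324 and 0.00114 with DMSO and 0.03 and 0.0246 with emetine (adjusted p = 1.6e-17 and 1.4e-10, F test). EZH2, the H3K27 methyltransferase of the Polycomb complex, had a 179-nt exon (chr7:148533914-148534092, minus strand) at 0.0101 and 0.0184 with DMSO and 0.105 and 0.0995 with emetine in MCF10A. In the other line, HMLE TWIST, levels were 0.0261 and 0.0419 with DMSO and 0.104 and 0.0794 with emetine (adjusted p = 4.3e-06 and 0.011, F test). A 924-nt exon of KDM4C, a demethylase of H3K9 and H3K36, had levels of 0.0098 and 0 with DMSO and 0.108 and 0.0601 with emetine in MCF10A. Levels in HMLE TWIST were 0 and 0.00599 with DMSO and 0.0592 and 0.0301 with emetine (adjusted p = 1.4e-05 and 0.0015, F test). In all 3 genes the emetine libraries of a line lay above its DMSO libraries. Such a separation of the treatments, in either direction, was common: it held for 67.4% of all tested events in MCF10A and 69.9% in HMLE TWIST. The p-values given for these 3 exons are from the F test only, without the more conservative limma test, so they do not rank these exons above the called ones.

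**Figure D3:**
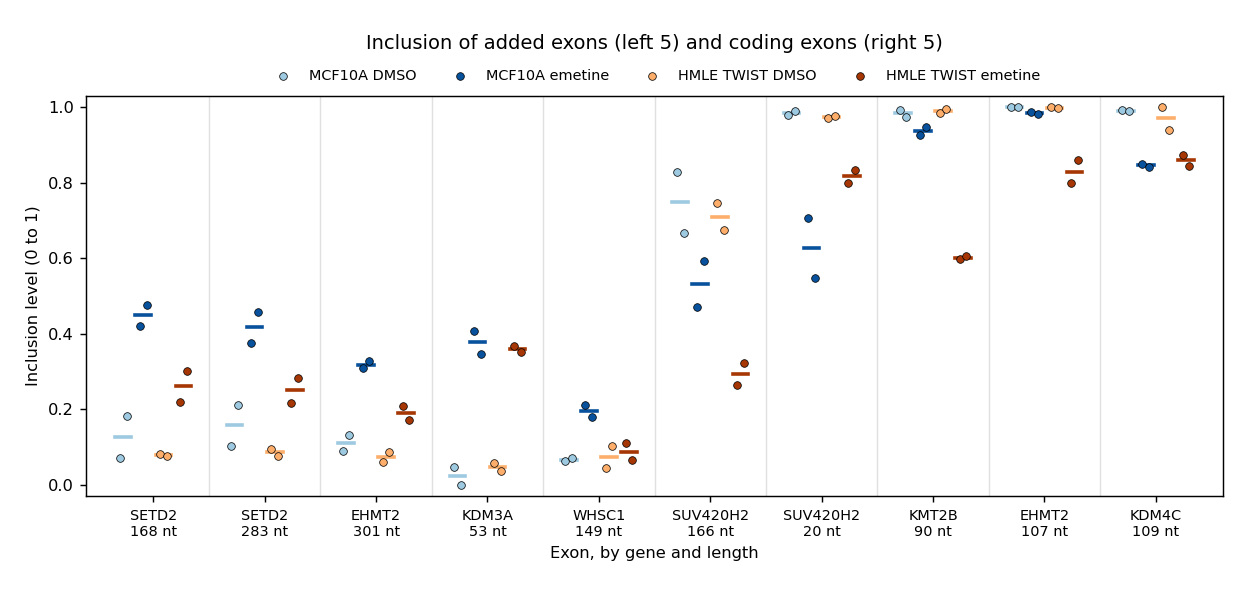
Inclusion level (0 to 1) of 5 exons whose inclusion is unproductive (left) and 5 coding exons (right), with a point for each library, a bar for the group mean and colours for the 4 groups. SETD2, EHMT2 and KDM3A exons rise with emetine in both lines, WHSC1 in MCF10A, and the coding exons of SUV420H2, KMT2B, EHMT2 and KDM4C fall, that of KMT2B from near 1 to 0.597 and 0.606 in HMLE TWIST.

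SETD5, a SET-domain protein that regulates chromatin and is linked to intellectual disability, went the other way. Several exons whose inclusion is unproductive by the annotation had sizeable levels in their events with DMSO and fell with emetine in a line. The 3 exons that carry a stop and were called are printed from 5′ to 3′ along the gene, on the plus strand of chromosome 3, with the first in-frame stop in capitals.
SETD5 225-nt exon: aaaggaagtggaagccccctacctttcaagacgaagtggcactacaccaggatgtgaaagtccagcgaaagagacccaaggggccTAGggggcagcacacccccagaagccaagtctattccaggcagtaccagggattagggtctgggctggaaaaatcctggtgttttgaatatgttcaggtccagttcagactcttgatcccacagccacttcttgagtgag
SETD5 137-nt exon: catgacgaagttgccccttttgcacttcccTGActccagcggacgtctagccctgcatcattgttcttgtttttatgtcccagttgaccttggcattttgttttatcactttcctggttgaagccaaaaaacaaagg
SETD5 41-nt exon: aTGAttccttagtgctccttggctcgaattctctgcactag

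In its best-covered event, the 225-nt exon (chr3:9471511-9471735, plus strand, stop at base 86) had a high inclusion level with DMSO. This level is a share within that event. The share of all SETD5 transcripts that hold the exon was not measured. Levels were 0.746 and 0.753 with DMSO and 0.335 and 0.401 with emetine in MCF10A. HMLE TWIST had 0.893 and 0.832 with DMSO and 0.421 and 0.536 with emetine. No emetine library of a line reached the level of its DMSO libraries. The mean fell from 0.75 ± 0.00537 to 0.368 ± 0.0471 (SD, n = 2 per group) in MCF10A (F test, adjusted p = 9.9e-26, with limma 0.027) and from 0.862 ± 0.043 to 0.479 ± 0.0814 (SD, n = 2 per group) in HMLE TWIST (F test, adjusted p = 4.2e-20, with limma 0.024), on 318 to 576 reads per library. The response did not pass the test for a difference between the lines (difference -0.0022, F test, adjusted p = 0.78, with limma 0.85). In a second event of the 225-nt exon, with the 193-nt exon as its downstream neighbour, the change was -0.0859 in MCF10A and 0.0283 in HMLE TWIST, and neither passed the test (F test, adjusted p = 0.068 and 0.62; limma, 0.18 and 0.53).

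The 41-nt exon (chr3:9476274-9476314, plus strand), whose TGA stop begins at its second base, fell further in HMLE TWIST than in MCF10A. Levels were 0.469 and 0.369 with DMSO and 0.259 and 0.279 with emetine in MCF10A. In HMLE TWIST levels were 0.545 and 0.463 with DMSO and 0.0805 and 0.0924 with emetine. Both emetine libraries were below both DMSO libraries in each line. The mean fell by 0.15 in MCF10A (F test, adjusted p = 7.8e-06, with limma 0.18) and by 0.418 in HMLE TWIST (F test, adjusted p = 9.1e-43, with limma 0.013). The change in HMLE TWIST minus that in MCF10A was -0.267 (F test, adjusted p = 2.5e-13, with limma 0.26).

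The 137-nt exon (chr3:9475729-9475865, plus strand; stop at base 31) changed in HMLE TWIST, with levels of 0.147 and 0.118 with DMSO and 0.118 and 0.125 with emetine in MCF10A. The HMLE TWIST libraries gave 0.276 and 0.373 with DMSO and 0.0422 and 0.0343 with emetine. In MCF10A the 2 groups overlapped, with a change of -0.0111 (F test, adjusted p = 0.79, with limma 0.81). In HMLE TWIST the mean fell from 0.325 ± 0.0688 to 0.0382 ± 0.00556 (SD, n = 2 per group) (F test, adjusted p = 7.6e-15, with limma 0.013), and the responses differed by -0.275 (F test, adjusted p = 2.5e-07, with limma 0.2). Between the 225-nt and 137-nt exons lies a 193-nt exon (chr3:9475054-9475246, plus strand), which an annotated decay target includes. In transcripts that also hold the 225-nt exon its levels were 0.38 and 0.385 with DMSO and 0.352 and 0.365 with emetine in MCF10A, and 0.567 and 0.713 with DMSO and 0.299 and 0.347 with emetine in HMLE TWIST, with a call in HMLE TWIST (change -0.316, F test, adjusted p = 1.3e-09, with limma 0.055) and for the difference between the lines (-0.292, F test, adjusted p = 0.00038, with limma 0.37). For the SETD5 193-nt exon for the difference between the lines, the call was lost without the second listed HMLE TWIST DMSO library (adjusted p = 0.11). Where the same exon is spliced to the coding exon before the 225-nt exon, it fell in both lines, with changes of -0.275 in MCF10A and -0.561 in HMLE TWIST (F test, adjusted p = 8.4e-11 and 1e-27; limma, 0.039 and 0.014), and its responses differed too (difference -0.286, F test, adjusted p = 0.0055, with limma 0.37). For the SETD5 193-nt exon for the difference between the lines, the call was lost without the first listed HMLE TWIST emetine library (adjusted p = 0.16). This event was not picked by the naming rule and was added after its values were seen.

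Further along SETD5, a rare 97-nt unproductive exon was at 0.102 and 0.0867 with DMSO and 0.0397 and 0.0326 with emetine in MCF10A, and 0.0375 and 0.0751 with DMSO and 0.0429 and 0.0339 with emetine in HMLE TWIST, and a 113-nt one was between 0.00308 and 0.0296. By contrast, a 57-nt exon near the 3′ end (chr3:9510203-9510259, plus strand), which keeps the frame, rose in both lines, with levels of 0.0915 and 0.0629 with DMSO and 0.227 and 0.167 with emetine in MCF10A. Those of HMLE TWIST were 0.0226 and 0.00995 with DMSO and 0.246 and 0.16 with emetine. The mean rose from 0.0772 ± 0.0202 to 0.197 ± 0.0425 (SD, n = 2 per group) in MCF10A (F test, adjusted p = 4.3e-11, with limma 0.082) and from 0.0163 ± 0.00898 to 0.203 ± 0.0607 (SD, n = 2 per group) in HMLE TWIST (F test, adjusted p = 2.9e-28, with limma 0.017). For the SETD5 57-nt exon in MCF10A, the call was lost without the first listed emetine library (change 0.0894, adjusted p = 0.00015). The 57-nt exon was likewise added after its values were seen.

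**Figure D4:**
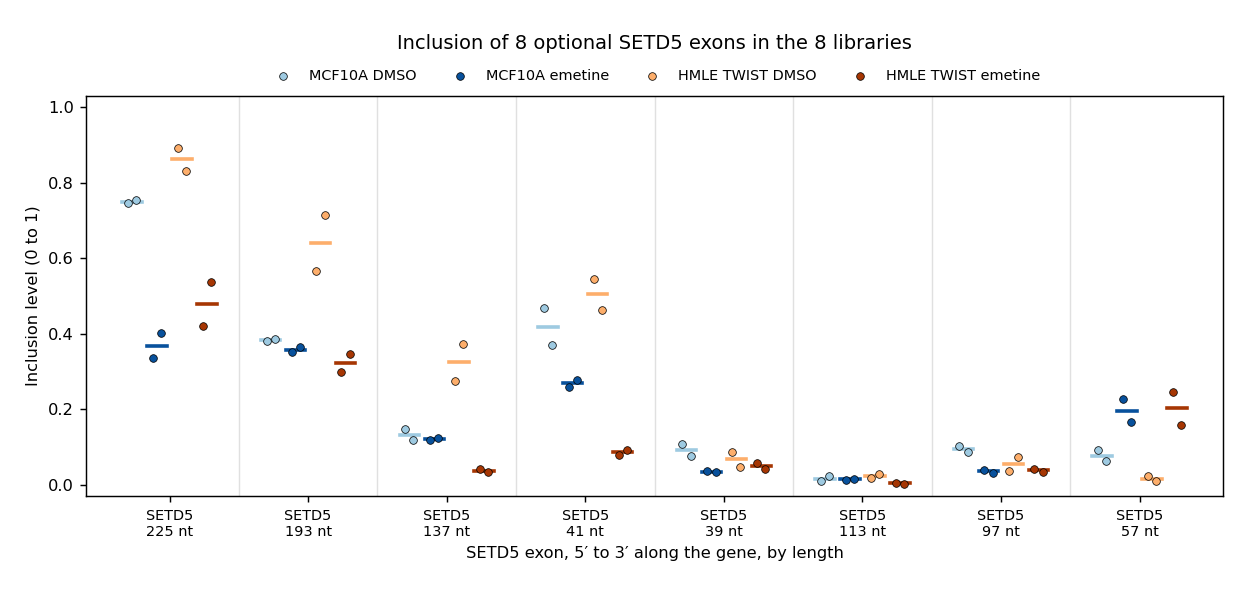
Inclusion level (0 to 1) of 8 optional SETD5 exons, ordered 5′ to 3′ along the gene, with a point for each of the 8 libraries and a bar for each group mean. The 225-nt and 41-nt exons fall with emetine in both lines, the 193-nt and 137-nt exons in HMLE TWIST, and the 57-nt exon rises in both.

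Several coding exons were skipped more often with emetine. The short ones are printed here because so few bases carry the change, and the KMT2B exon because it keeps the frame.
SUV420H2 20-nt exon: actgcaaacccaactgcaag
SETDB1 29-nt exon: gacactgacgaccgaaacaagatgtcagt
KMT2B 90-nt exon: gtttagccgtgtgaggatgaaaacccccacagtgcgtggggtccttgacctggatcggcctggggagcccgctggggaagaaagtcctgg

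KMT2B, an H3K4 methyltransferase, included its 90-nt exon (chr19:36224498-36224587, plus strand) less often with emetine in HMLE TWIST. Levels were 0.993 and 0.974 with DMSO and 0.926 and 0.947 with emetine in MCF10A. For HMLE TWIST, levels were 0.985 and 0.994 with DMSO and 0.597 and 0.606 with emetine. The exon was included almost always in 3 of the 4 groups. In HMLE TWIST the mean fell from 0.989 ± 0.00582 to 0.602 ± 0.00665 (SD, n = 2 per group) (F test, adjusted p = 1.4e-21, with limma 0.011), and the form that skips the exon is not in the annotation. In MCF10A the change was -0.047 (F test, adjusted p = 0.085, with limma 0.096), and the difference between the responses did not pass the test (difference -0.341, F test, adjusted p = 0.15, with limma 0.23). That test is on log odds, which stretch near a level of 1, so it does not judge the printed difference of levels. With emetine, HMLE TWIST was lower than MCF10A by 0.335 (F test, adjusted p = 4.8e-14, with limma 0.068). Without the length correction the change in HMLE TWIST was -0.253.

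SUV420H2, also named KMT5C, which trimethylates H4K20, had 2 coding exons whose skipping brings an early stop, and both fell in both lines. The 20-nt exon (chr19:55855346-55855365, plus strand) was at 0.98 and 0.99 with DMSO and 0.707 and 0.548 with emetine in MCF10A. In the other line, HMLE TWIST, levels were 0.972 and 0.976 with DMSO and 0.8 and 0.832 with emetine. Emetine libraries were below DMSO libraries throughout. It fell by 0.357 in MCF10A (F test, adjusted p = 3.5e-08, with limma 0.015) and by 0.158 in HMLE TWIST (F test, adjusted p = 0.0055, with limma 0.017). The 166-nt exon (chr19:55853583-55853748, plus strand) was at 0.828 and 0.667 with DMSO and 0.472 and 0.591 with emetine in MCF10A, and 0.745 and 0.674 with DMSO and 0.266 and 0.323 with emetine in HMLE TWIST, again with no overlap between treatments. It fell by 0.216 (F test, adjusted p = 0.0071, with limma 0.16) and by 0.415 (F test, adjusted p = 2.6e-07, with limma 0.022). For the SUV420H2 20-nt exon in HMLE TWIST, the call was lost without the second listed DMSO library (adjusted p = 0.059). For the SUV420H2 166-nt exon in MCF10A, the call was lost with the event's own larger dispersion (adjusted p = 0.12), without the first listed DMSO library (change -0.135, adjusted p = 0.22) and without the first listed emetine library (adjusted p = 0.24). The events had 44 to 123 and 74 to 181 reads per library. Its relative SUV420H1, also named KMT5B, had a 69-nt in-frame exon at 0.952 and 0.948 with DMSO and 0.825 and 0.839 with emetine in MCF10A, and 0.925 and 0.916 with DMSO and 0.916 and 0.907 with emetine in HMLE TWIST, a call in MCF10A (-0.118, F test, adjusted p = 0.00016, with limma 0.038) that was added after its values were seen. For the SUV420H1 69-nt exon in MCF10A, the call was lost without the length correction (change -0.0766).

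In the H3K9 group, EHMT2, EHMT1 (also named GLP) and SETDB1, which trimethylates H3K9, lost coding exons in HMLE TWIST. The EHMT2 107-nt exon (chr6:31854772-31854878, minus strand), whose skipping breaks the frame, was at 1 and 1 with DMSO and 0.986 and 0.981 with emetine in MCF10A. Levels in HMLE TWIST were 1 and 0.997 with DMSO and 0.798 and 0.859 with emetine. It was at least 0.981 outside the emetine libraries of HMLE TWIST, where it fell by 0.17 (F test, adjusted p = 2e-18, with limma 0.012). In SETDB1 the 29-nt exon (chr1:150934606-150934634, plus strand) was at 1 and 1 with DMSO and 0.96 and 0.939 with emetine in MCF10A, and 1 and 0.97 with DMSO and 0.846 and 0.832 with emetine in HMLE TWIST, with a fall of 0.146 in HMLE TWIST (F test, adjusted p = 0.00016, with limma 0.046) and of 0.0504 in MCF10A, below the threshold (F test, adjusted p = 0.00039, with limma 0.015). The EHMT1 78-nt exon, in frame, was at 0.882 and 0.918 with DMSO and 0.819 and 0.842 with emetine in MCF10A, and 0.866 and 0.866 with DMSO and 0.715 and 0.706 with emetine in HMLE TWIST and fell by 0.156 in HMLE TWIST (F test, adjusted p = 0.00018, with limma 0.067). EHMT1 exons of 64 and 144 nt fell by 0.103 (F test, adjusted p = 0.024, with limma 0.16) and 0.108 (F test, adjusted p = 0.00026, with limma 0.061) in that line, the latter added after its values were seen. The 64-nt exon changed by -0.0028 in MCF10A. For the EHMT2 107-nt exon in HMLE TWIST, the call was lost without the length correction (change -0.0933). For the EHMT1 64-nt exon in HMLE TWIST, the call was lost without the length correction (change -0.071), without the first listed DMSO library (change -0.0992, adjusted p = 0.11), without the second listed DMSO library (adjusted p = 0.097) and without the second listed emetine library (change -0.0432, adjusted p = 0.54), and held without the first listed emetine library (change -0.162, adjusted p = 0.0069). For the EHMT1 144-nt exon in HMLE TWIST, the call was lost without the length correction (change -0.0592), without the second listed DMSO library (change -0.0905, adjusted p = 0.04) and without the second listed emetine library (change -0.0961, adjusted p = 0.01).

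Among demethylases, the KDM4C 109-nt exon (chr9:7049092-7049200, plus strand), whose skipping breaks the frame, fell in both lines, with levels of 0.992 and 0.988 with DMSO and 0.849 and 0.842 with emetine in MCF10A. HMLE TWIST had 1 and 0.94 with DMSO and 0.872 and 0.845 with emetine. Changes were -0.144 in MCF10A (F test, adjusted p = 8.6e-06, with limma 0.015) and -0.111 in HMLE TWIST (F test, adjusted p = 0.013, with limma 0.13). For the KDM4C 109-nt exon in MCF10A, the call was lost without the length correction (change -0.0787). For the KDM4C 109-nt exon in HMLE TWIST, the call was lost without the length correction (change -0.0605), without the first listed DMSO library (change -0.081, adjusted p = 0.29) and without the second listed emetine library (change -0.0975, adjusted p = 0.028). KDM6B, also named JMJD3, removes methyl groups from H3K27. Its 142-nt exon was at 1 and 1 with DMSO and 0.946 and 0.945 with emetine in MCF10A, and 0.965 and 0.973 with DMSO and 0.763 and 0.836 with emetine in HMLE TWIST, a fall of 0.17 in HMLE TWIST (F test, adjusted p = 0.041, with limma 0.025). Its 149-nt exon fell by 0.114 there (F test, adjusted p = 0.022, with limma 0.02) and changed by -0.0895 in MCF10A, under the 0.1 threshold. For the KDM6B 142-nt exon in HMLE TWIST, the call was lost without the length correction (change -0.0961), without the first listed DMSO library (adjusted p = 0.11) and without the second listed DMSO library (adjusted p = 0.19). For the KDM6B 149-nt exon in HMLE TWIST, the call was lost without the length correction (change -0.061), without the first listed DMSO library (adjusted p = 0.091) and without the second listed DMSO library (adjusted p = 0.15). KDM4B, a relative of KDM4C, had a 102-nt in-frame exon that fell in MCF10A, from 0.954 and 0.886 to 0.799 and 0.778 (F test, adjusted p = 0.0016, with limma 0.11). Its change in HMLE TWIST was 0.0221, under the 0.1 threshold. For the KDM4B 102-nt exon in MCF10A, the call was lost without the length correction (change -0.0762) and without the first listed DMSO library (change -0.0971, adjusted p = 0.15).

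Further exons of DOT1L, KMT2C, SETD6 and WHSC1 had lower inclusion with emetine in a line. DOT1L, the H3K79 methyltransferase, had a 157-nt exon at 0.978 and 0.964 with DMSO and 0.839 and 0.888 with emetine in MCF10A (F test, adjusted p = 0.012, with limma 0.041), and at 0.988 and 1 and 1 and 1 in HMLE TWIST, where it had too few skipping reads for a test. For the DOT1L 157-nt exon in MCF10A, the call was lost without the length correction (change -0.0588), without the first listed DMSO library (adjusted p = 0.12), without the second listed DMSO library (adjusted p = 0.051) and without the first listed emetine library (change -0.0836, adjusted p = 0.1). KMT2C, an H3K4 methyltransferase, had a 105-nt in-frame exon at 0.954 and 0.965 with DMSO and 0.765 and 0.833 with emetine in MCF10A, and 0.931 and 0.884 with DMSO and 0.714 and 0.783 with emetine in HMLE TWIST, with a call in MCF10A (F test, adjusted p = 0.014, with limma 0.035). Parts of KMT2C have near-identical copies elsewhere in the genome, so its reads are uncertain. For the KMT2C 105-nt exon in MCF10A, the call was lost without the length correction (change -0.091), without the first listed DMSO library (adjusted p = 0.058), without the second listed DMSO library (adjusted p = 0.13) and without the first listed emetine library (adjusted p = 0.13). In SETD6, a methyltransferase of non-histone proteins, 3 forms of an exon that share 1 splice site (212, 181 and 51 nt) fell by 0.138, 0.136 and 0.137 in HMLE TWIST. The 181-nt form was at 0.983 and 0.96 with DMSO and 0.763 and 0.909 with emetine (F test, adjusted p = 0.00065, with limma 0.069), with 1 emetine library close to the DMSO libraries. For the SETD6 212-nt exon in HMLE TWIST, the call was lost with the event's own larger dispersion (adjusted p = 0.071), without the length correction (change -0.0802), without the first listed DMSO library (adjusted p = 0.23) and without the first listed emetine library (change -0.0577, adjusted p = 0.39), and held without the second listed emetine library (change -0.218, adjusted p = 0.0018). For the SETD6 181-nt exon in HMLE TWIST, the call was lost without the length correction (change -0.0768), without the first listed DMSO library (adjusted p = 0.061) and without the first listed emetine library (change -0.0626, adjusted p = 0.22), and held without the second listed emetine library (change -0.209, adjusted p = 9e-05). For the SETD6 51-nt exon in HMLE TWIST, the call was lost without the first listed DMSO library (adjusted p = 0.29), without the second listed DMSO library (adjusted p = 0.051) and without the first listed emetine library (change -0.0708, adjusted p = 0.41). WHSC1 had a 233-nt exon in transcripts annotated as noncoding at 1 and 0.988 with DMSO and 1 and 1 with emetine in MCF10A, and 0.99 and 0.973 with DMSO and 0.841 and 0.786 with emetine in HMLE TWIST, a fall in HMLE TWIST (F test, adjusted p = 3.3e-11, with limma 0.02). For the WHSC1 233-nt exon in HMLE TWIST, the call was lost without the length correction (change -0.0936).

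A smaller set of coding exons was included more with emetine. SUV39H2, which trimethylates H3K9, had a 146-nt exon (chr10:14923499-14923644, plus strand) whose skipping gives an annotated decay target. Levels were 0.411 and 0.329 with DMSO and 0.527 and 0.579 with emetine in MCF10A. In HMLE TWIST levels were 0.48 and 0.286 with DMSO and 0.731 and 0.717 with emetine. The emetine libraries lay above the DMSO libraries in each line, and the DMSO libraries of HMLE TWIST differed widely. Inclusion rose by 0.183 in MCF10A (F test, adjusted p = 0.014, with limma 0.15) and by 0.341 in HMLE TWIST (F test, adjusted p = 8.6e-06, with limma 0.055). In a second event of this exon, with a longer form of its upstream neighbour, the change was 0.0105 in MCF10A and 0.148 in HMLE TWIST, and neither passed the test (F test, adjusted p = 0.98 and 0.071; limma, 0.8 and 0.23). For the SUV39H2 146-nt exon in MCF10A, the call was lost without the second listed DMSO library (adjusted p = 0.2) and without the second listed emetine library (adjusted p = 0.088).

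KDM6A, also named UTX, an H3K27 demethylase on the X chromosome, has neighbouring in-frame exons that were often skipped in their events. Its 135-nt exon (chrX:44919267-44919401, plus strand) was at 0.458 and 0.468 with DMSO and 0.587 and 0.569 with emetine in MCF10A. The HMLE TWIST libraries gave 0.365 and 0.354 with DMSO and 0.743 and 0.657 with emetine. In HMLE TWIST it rose by 0.34 (F test, adjusted p = 1.3e-05, with limma 0.035), and in MCF10A the change of 0.115 did not pass the test (F test, adjusted p = 0.17, with limma 0.27). With another downstream exon as its neighbour, the same exon rose in both lines, by 0.147 (F test, adjusted p = 0.0065, with limma 0.05) and 0.268 (F test, adjusted p = 6.4e-05, with limma 0.028). A 156-nt exon with the same downstream neighbour rose by 0.132 and 0.175 where it is joined to the exon before the 135-nt exon (F test, adjusted p = 0.022 and 0.0024; limma, 0.061 and 0.04). Where it is joined to the 135-nt exon, its change was 0.016 in MCF10A and -0.00593 in HMLE TWIST (F test, adjusted p = 0.908 and 0.997; limma, 0.88 and 0.98). A rare 108-nt in-frame exon was at 0.0166 and 0.00474 with DMSO and 0.131 and 0.101 with emetine in MCF10A, and 0.0274 and 0 with DMSO and 0.0723 and 0.0667 with emetine in HMLE TWIST, with a call in MCF10A (F test, adjusted p = 1.2e-06, with limma 0.03). For the KDM6A 108-nt exon in MCF10A, the call was lost without the second listed DMSO library (change 0.0997, adjusted p = 0.0057) and without the first listed emetine library (change 0.0906, adjusted p = 0.00019). The last 3 were added after their values were seen, as was a 99-nt in-frame exon of KDM4C at 0.0321 and 0.0474 with DMSO and 0.155 and 0.141 with emetine in MCF10A, and 0.0618 and 0.118 with DMSO and 0.166 and 0.196 with emetine in HMLE TWIST, called in MCF10A (F test, adjusted p = 0.00013, with limma 0.04). Without the length correction, the changes in MCF10A were 0.187 for the KDM6A 108-nt exon and 0.18 for the KDM4C exon. For the KDM6A 135-nt exon in MCF10A, the call was lost without the length correction (change 0.0852) and without the first listed DMSO library (change 0.0982, adjusted p = 0.24). For the KDM6A 156-nt exon in MCF10A, the call was lost without the length correction (change 0.0765), without the first listed DMSO library (change 0.0904, adjusted p = 0.33), without the first listed emetine library (adjusted p = 0.076) and without the second listed emetine library (adjusted p = 0.051). For the KDM6A 156-nt exon in HMLE TWIST, the call was lost without the length correction (change 0.098) and without the first listed DMSO library (adjusted p = 0.053).

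WHSC1 had a 125-nt exon (chr4:1941381-1941505, plus strand) that rose in HMLE TWIST, with levels of 0.736 and 0.718 with DMSO and 0.816 and 0.765 with emetine in MCF10A. Those of HMLE TWIST were 0.685 and 0.562 with DMSO and 0.884 and 0.893 with emetine. The change was 0.265 in that line (F test, adjusted p = 5.8e-16, with limma 0.033) and 0.0637 in MCF10A (F test, adjusted p = 0.25, with limma 0.42), and the responses differed by 0.201 (F test, adjusted p = 0.002, with limma 0.37). For the WHSC1 125-nt exon for the difference between the lines, the call was lost with the event's own larger dispersion (adjusted p = 0.23), without the second listed MCF10A emetine library (adjusted p = 0.17) and without the second listed HMLE TWIST DMSO library (adjusted p = 0.077). Without the length correction the change in HMLE TWIST was 0.175. A 104-nt WHSC1 exon near the start of the gene, added after its values were seen, was at 0.438 and 0.667 with DMSO and 0.911 and 0.947 with emetine in HMLE TWIST (F test, adjusted p = 0.0044, with limma 0.028). With its other upstream neighbour the 104-nt exon was rare, with changes of 0.0359 in MCF10A and 0.0664 in HMLE TWIST, under the 0.1 threshold (F test, adjusted p = 3.7e-05 and 1.5e-20; limma, 0.061 and 0.017). ASH1L, a SET-domain methyltransferase related to the Drosophila trithorax gene ash1 and counted here in the H3K4 group, had a 143-nt exon of the 5′ UTR at 0.593 and 0.656 with DMSO and 0.87 and 0.837 with emetine in MCF10A (F test, adjusted p = 0.026, with limma 0.049). The change of this exon in HMLE TWIST was -0.0156, under the 0.1 threshold. Its event had 33 to 144 reads per library, among the lowest of the tested events. For the ASH1L 143-nt exon in MCF10A, the call was lost without the first listed DMSO library (adjusted p = 0.16), without the second listed DMSO library (adjusted p = 0.087) and without the first listed emetine library (adjusted p = 0.11).

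Arginine methyltransferases had few called events, and 2 in-frame exons of the main asymmetric enzymes moved in opposite directions. Their sequences are printed in 5′ to 3′ order, with no part marked.
PRMT1 54-nt exon: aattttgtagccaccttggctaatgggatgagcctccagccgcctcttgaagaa
CARM1 69-nt exon: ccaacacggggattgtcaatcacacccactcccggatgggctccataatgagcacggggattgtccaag

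PRMT1, which deposits most asymmetric dimethylarginine in cells, had a 54-nt exon (chr19:50183129-50183182, plus strand) measured on 2078 to 3595 reads per library, the deepest of the exons described. Levels were 0.105 and 0.119 with DMSO and 0.244 and 0.24 with emetine in MCF10A. For HMLE TWIST, levels were 0.0947 and 0.086 with DMSO and 0.181 and 0.177 with emetine. Replicates of a group lay close together, and the emetine libraries were above the DMSO libraries in both lines. Inclusion rose from 0.112 ± 0.00962 to 0.242 ± 0.00284 (SD, n = 2 per group) in MCF10A (F test, adjusted p = 2.4e-45, with limma 0.076). In HMLE TWIST it rose from 0.0903 ± 0.00615 to 0.179 ± 0.00299 (SD, n = 2 per group), less than the 0.1 needed for a call (F test, adjusted p = 1.4e-25, with limma 0.11). This exon was outside the naming rule and was chosen after its values were seen.

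CARM1, which methylates H3R17 and many RNA-binding proteins, had a 69-nt exon (chr19:11032051-11032119, plus strand) that fell. Levels were 0.17 and 0.192 with DMSO and 0.0866 and 0.0796 with emetine in MCF10A, and 0.315 and 0.314 with DMSO and 0.165 and 0.127 with emetine in HMLE TWIST, and the treatments did not overlap in either line. It fell from 0.315 ± 0.00103 to 0.146 ± 0.027 (SD, n = 2 per group) in HMLE TWIST (F test, adjusted p = 4.4e-21, with limma 0.071) and by 0.098 in MCF10A, just under the threshold (F test, adjusted p = 2.4e-07, with limma 0.086). The responses did not pass the test for a difference (F test, adjusted p = 0.86, with limma 0.94). PRMT3, a ribosome-associated enzyme that methylates a ribosomal protein, had a 50-nt exon whose skipping breaks the frame at 0.89 and 0.869 with DMSO and 0.987 and 0.933 with emetine in MCF10A. In the other line, HMLE TWIST, levels were 0.844 and 0.819 with DMSO and 0.956 and 0.959 with emetine. It rose by 0.126 in HMLE TWIST (F test, adjusted p = 0.0075, with limma 0.027). For the PRMT3 50-nt exon in HMLE TWIST, the call was lost without the length correction (change 0.0906), without the first listed DMSO library (adjusted p = 0.064) and without the second listed DMSO library (adjusted p = 0.057).

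Before treatment the lines differed in a few exons. Of 119 events tested between the DMSO libraries, 13 were called (10.9%, background 6.62%). HMLE TWIST was higher in 9 and lower in 4 (background 2.17% and 4.45%). Of 198 events between the emetine libraries, 26 were called (13.1%, background 9.82%), 8 higher and 18 lower (background 1.97% and 7.85%). Limma called 0 of these events in either comparison (background 0.187% and 0%), at a smallest adjusted p of 0.0823 and 0.0609 for the enzymes' events, while 37 and 76 events had an unadjusted p under 0.05 in the F test. These comparisons use the same libraries as the responses to emetine, so their values stand side by side with them. The lines also differ in epithelial and mesenchymal markers, as given at the start, and the part of that difference was not tested.

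SETD8, also named KMT5A, the only enzyme known to monomethylate H4K20, had a 122-nt exon (chr12:123873980-123874101, plus strand) whose skipping gives a decay target. Levels were 0.727 and 0.71 with DMSO and 0.6 and 0.603 with emetine in MCF10A. Levels in HMLE TWIST were 0.446 and 0.469 with DMSO and 0.5 and 0.443 with emetine. HMLE TWIST was lower than MCF10A by 0.261 with DMSO (F test, adjusted p = 5.1e-06, with limma 0.16). Emetine moved the level by -0.117 in MCF10A (F test, adjusted p = 0.021, with limma 0.23) and by 0.0141 in HMLE TWIST (F test, adjusted p = 0.84, with limma 0.9). For the SETD8 122-nt exon in MCF10A, the call was lost without the length correction (change -0.0851), without the first listed DMSO library (adjusted p = 0.17), without the second listed DMSO library (adjusted p = 0.068), without the first listed emetine library (adjusted p = 0.06) and without the second listed emetine library (adjusted p = 0.064). CARM1 included its 69-nt exon more in HMLE TWIST, by 0.134 with DMSO (F test, adjusted p = 2.1e-15, with limma 0.25). In PRMT2, an arginine methyltransferase and coactivator, a 109-nt exon of the 5′ UTR was at 0.128 and 0.101 with DMSO and 0.0901 and 0.0833 with emetine in MCF10A. HMLE TWIST had 0.269 and 0.236 with DMSO and 0.257 and 0.233 with emetine. It was higher in HMLE TWIST by 0.138 with DMSO (F test, adjusted p = 2.3e-18, with limma 0.19) and by 0.158 with emetine (F test, adjusted p = 1.5e-10, with limma 0.089), and the treatment did not change it by the test in either line. PRMT2 coding exons of 176 and 172 nt were lower in HMLE TWIST with DMSO by 0.105 (F test, adjusted p = 7.2e-06, with limma 0.082) and 0.123 (F test, adjusted p = 0.0014, with limma 0.099). For the PRMT2 176-nt exon under DMSO, the call was lost without the length correction (change -0.0557). For the PRMT2 172-nt exon under DMSO, the call was lost without the length correction (change -0.0662) and without the second listed MCF10A DMSO library (adjusted p = 0.055).

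SETD5 exons of 193, 137 and 225 nt were more included in HMLE TWIST than in MCF10A with DMSO, by 0.257 (F test, adjusted p = 1.4e-08, with limma 0.2), 0.192 (F test, adjusted p = 0.0013, with limma 0.18) and 0.113 (F test, adjusted p = 0.017, with limma 0.28). For the SETD5 137-nt exon under DMSO, the call was lost without the second listed HMLE TWIST DMSO library (adjusted p = 0.11). For the SETD5 225-nt exon under DMSO, the call was lost without the length correction (change 0.0689), without the first listed MCF10A DMSO library (adjusted p = 0.076), without the second listed MCF10A DMSO library (adjusted p = 0.074) and without the first listed HMLE TWIST DMSO library (change 0.0823, adjusted p = 0.23). SETD9, a little-studied SET-domain protein, had overlapping exons of 368 and 334 nt. The 368-nt exon was at 0.345 and 0.321 with DMSO and 0.34 and 0.2 with emetine in MCF10A, and 0.551 and 0.632 with DMSO and 0.422 and 0.317 with emetine in HMLE TWIST, higher in HMLE TWIST by 0.258 with DMSO (F test, adjusted p = 0.013, with limma 0.18) and lower with emetine in that line by 0.222 (F test, adjusted p = 0.047, with limma 0.11). For the SETD9 368-nt exon under DMSO, the call was lost without the second listed MCF10A DMSO library (adjusted p = 0.1), without the first listed HMLE TWIST DMSO library (adjusted p = 0.064) and without the second listed HMLE TWIST DMSO library (adjusted p = 0.16). For the SETD9 368-nt exon in HMLE TWIST, the call was lost with the event's own larger dispersion (adjusted p = 0.053), without the first listed DMSO library (adjusted p = 0.084), without the second listed DMSO library (adjusted p = 0.21) and without the second listed emetine library (adjusted p = 0.23). The 334-nt form was higher by 0.24 with DMSO (F test, adjusted p = 0.018, with limma 0.14). For the SETD9 334-nt exon under DMSO, the call was lost without the first listed MCF10A DMSO library (adjusted p = 0.086), without the second listed MCF10A DMSO library (adjusted p = 0.055), without the first listed HMLE TWIST DMSO library (adjusted p = 0.13) and without the second listed HMLE TWIST DMSO library (adjusted p = 0.12). The WHSC1 125-nt exon was lower in HMLE TWIST by 0.103 (F test, adjusted p = 0.012, with limma 0.47). For the WHSC1 125-nt exon under DMSO, the call was lost with the event's own larger dispersion (adjusted p = 0.39), without the length correction (change -0.0754), without the first listed MCF10A DMSO library (change -0.094, adjusted p = 0.1), without the second listed MCF10A DMSO library (adjusted p = 0.061) and without the second listed HMLE TWIST DMSO library (change -0.0422, adjusted p = 0.56), and held without the first listed HMLE TWIST DMSO library (change -0.165, adjusted p = 0.0028).

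**Figure D5:**
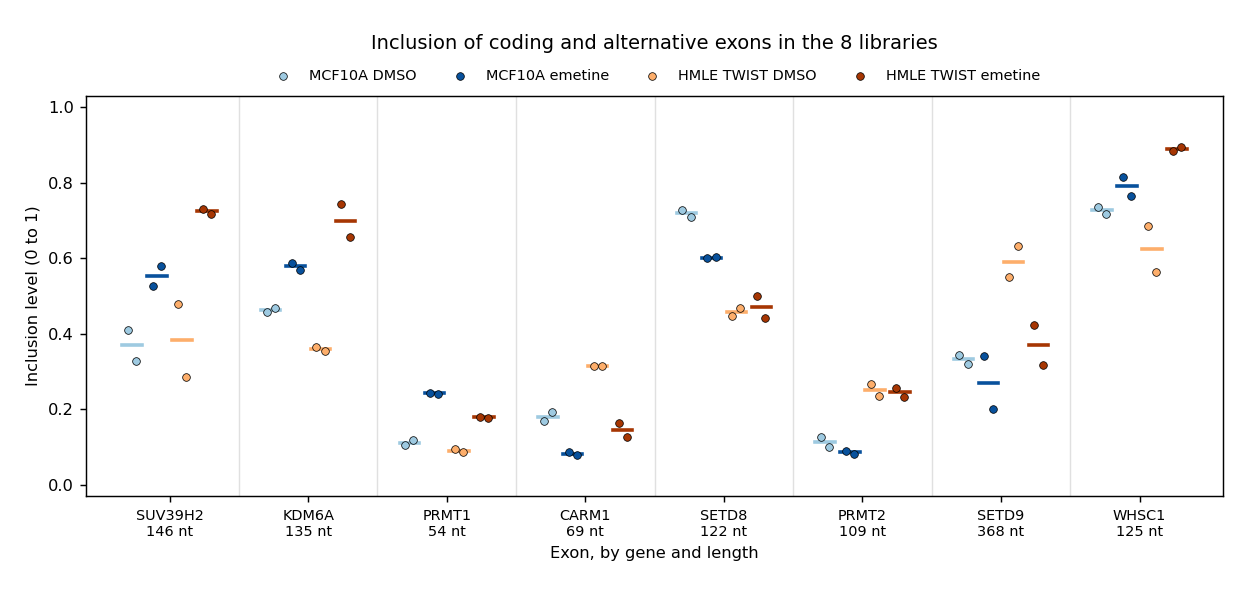
Inclusion level (0 to 1) of 8 coding, 5′ UTR and other alternative exons, with a point for each of the 8 libraries and a bar for each group mean. SUV39H2, KDM6A and PRMT1 exons are higher with emetine, the CARM1 exon lower, and the SETD8, CARM1, PRMT2 and SETD9 exons differ between the lines with DMSO.

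Direct tests of the response by line, made on log odds, called 7 of 223 events (3.14%, background 1.89%). HMLE TWIST had the more positive change in 2 and the more negative in 5 (background 0.61% and 1.28%). They lie in 6 exons of SETD5, WHSC1 and KMT2D. Limma called 0, with a smallest adjusted p of 0.197 for the enzymes' events, and 41 events had an unadjusted p under 0.05 in the F test. KMT2D, an H3K4 methyltransferase of enhancers, had a 48-nt in-frame exon at 0.103 and 0.0963 with DMSO and 0.0632 and 0.0565 with emetine in MCF10A, and 0.0639 and 0.0439 with DMSO and 0.116 and 0.122 with emetine in HMLE TWIST, lower with emetine in MCF10A and higher in HMLE TWIST, with a difference of 0.105 (F test, adjusted p = 0.026, with limma 0.29). For the KMT2D 48-nt exon for the difference between the lines, the call was lost without the first listed MCF10A DMSO library (adjusted p = 0.11), without the second listed MCF10A DMSO library (adjusted p = 0.074), without the first listed MCF10A emetine library (adjusted p = 0.052), without the second listed MCF10A emetine library (adjusted p = 0.098), without the second listed HMLE TWIST DMSO library (change 0.0954, adjusted p = 0.23) and without the second listed HMLE TWIST emetine library (adjusted p = 0.081). A 94-nt WHSC1 exon, whose inclusion gives a decay target, was at 0.125 and 0.0997 with DMSO and 0.168 and 0.145 with emetine in MCF10A, and 0.162 and 0.168 with DMSO and 0.105 and 0.107 with emetine in HMLE TWIST, with a difference of -0.103 (F test, adjusted p = 0.0025, with limma 0.44). For the WHSC1 94-nt exon for the difference between the lines, the call was lost without the second listed MCF10A DMSO library (change -0.0904, adjusted p = 0.068), without the first listed MCF10A emetine library (change -0.0917, adjusted p = 0.039) and without the second listed HMLE TWIST DMSO library (change -0.0998, adjusted p = 0.012).

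Many exons of these genes were close to constitutive. Of 366 events with at least 20 reads in all 8 libraries, 279 had a mean level of at least 0.9 in MCF10A with DMSO, 40 were at most 0.1 and 47 lay between. In HMLE TWIST with DMSO these numbers were 272, 45 and 49. The events between 0.1 and 0.9 numbered 55 and 62 with emetine. The median spread between replicates (SD, n = 2) was 0.00339 to 0.00658. EZH2 is an example: its 170-nt exon, with 474 to 1798 reads per library, was at 0.997 and 1 with DMSO and 0.976 and 0.994 with emetine in MCF10A. In HMLE TWIST levels were 0.982 and 0.983 with DMSO and 0.975 and 0.976 with emetine. Of the common isoform choices, 2 that were not called are given. The EHMT2 102-nt in-frame exon was at 0.736 and 0.66 with DMSO and 0.7 and 0.632 with emetine in MCF10A, and 0.705 and 0.759 with DMSO and 0.68 and 0.646 with emetine in HMLE TWIST, and the 60-nt exon of KDM1A, also named LSD1, at 0.441 and 0.473 with DMSO and 0.531 and 0.461 with emetine in MCF10A. The HMLE TWIST libraries gave 0.418 and 0.401 with DMSO and 0.477 and 0.432 with emetine. Changes in MCF10A and HMLE TWIST were -0.0319 and -0.0687 for EHMT2, and 0.0393 and 0.0451 for KDM1A. Both were chosen for mention as well-known isoforms after their values were seen.

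Exon form was described without a test. Of 180 exons tested in a line, the 16 with an event called higher with emetine had a median length of 130 nt, the 26 called lower 116 nt and the 138 not called 122 nt. A length divisible by 3 was found in 43.8%, 34.6% and 31.9% of them, against 39% of all 26554 matched exons. The introns flanking exons that fell had a median length of 1110 nt before and 430 nt after, against 2400 and 2550 nt for exons not called. Intron lengths over all exons were not computed, and several exons that fell belong to the same gene. For a called exon the introns are those of its called event with the largest change, otherwise those of its best-covered event. Because the study concerns RNA G-quadruplexes, exon sequences were searched on the sense strand for a loose G-quadruplex pattern, 4 runs of at least 2 G separated by 1 to 7 bases of any kind. The pattern was present in 4 of 16 exons that rose (25%), 6 of 26 that fell (23.1%) and 26 of 129 with sequence that were not called (20.2%), against 21.7% of all 26554. Of the printed exons, those of SETD2 and SETD5 (225 nt) hold it. A match describes the letters of the exon only.

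Partners, readers and methyl donors of these enzymes, a list of 60 genes, gave 23 called of 116 tested events in MCF10A (19.8%, background 13.8%; 11 higher, 12 lower) and 17 of 140 in HMLE TWIST (12.1%, background 15%; 10 higher, 7 lower). Examples called in both lines, chosen after their values were seen, are SUZ12 and JMJD6. SUZ12, a core subunit of the EZH2 complex, had a 106-nt exon whose skipping breaks the frame at 0.948 and 0.97 with DMSO and 0.699 and 0.746 with emetine in MCF10A, and 0.968 and 0.986 and 0.717 and 0.75 in HMLE TWIST (adjusted p = 2.2e-15 and 3e-19, F test, with limma 0.021 and 0.015). JMJD6, a JmjC-domain enzyme, had a 94-nt exon at 0.0361 and 0.0287 with DMSO and 0.299 and 0.219 with emetine in MCF10A, and 0.0298 and 0.0233 and 0.173 and 0.133 in HMLE TWIST (adjusted p = 8.7e-35 and 6.3e-23, F test, with limma 0.018 and 0.019). In both the DMSO and emetine libraries of a line did not overlap.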

How the data were processed

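RNA was extracted with Trizol and made into stranded, paired-end, polyadenylated TruSeq libraries, per the labels' protocols. STAR 2.5.3a and the genome build GRCh37 are named in the submitters' processing notes, and the version and annotation of the splicing program are not given in the sources used here. The authors deposited a skipped-exon table for each line in the format of rMATS, with junction read counts of the inclusion and skipping forms for 2 replicates per group, their effective lengths, p-values and a false discovery rate. The difference of inclusion levels that the authors deposited is a score per event, and values computed here from the read counts differed from it by 0.00142 at most. The headers number the groups without naming them: following each table's name, group 1 was read as DMSO and group 2 as emetine. The listed values carry no replicate number.

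Inclusion levels were computed from counts divided by effective length. Each event was fitted with a quasi-binomial logistic model in R 4.3.3, with dispersions moderated by squeezeVar of limma 3.58.1 and floored at 1, on all events of a table, and p-values were adjusted by the Benjamini-Hochberg method over all of them. Moderation gave a single shared dispersion per comparison, between 1.836 and 1.998, so an event whose own replicates vary more gets too small a p, which the limma test on log2 odds (with 0.5 added to each count) and the event's own dispersion address. The script was tested on simulated data. Of the 394 events, 318 were matched to GENCODE 29 transcripts by gene, exon length and both intron lengths, without converting coordinates. Reading-frame effects follow from the annotated transcript with the exon added or removed, and were not measured.

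The members and gene lists were chosen with earlier results of these data known. Exons named are up to 25 called in a line with the largest change (at most 2 per gene), all called for the difference between lines, the 10 with the largest difference under DMSO, the deepest exon of a family without one, and called exons that break the frame, 41 in all. Another 10 events called in a line, and those so marked in the text, were added after their values were seen. Counting intervals are not given, since junction reads carry no molecular identifiers and the spread between libraries exceeded counting error.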

Additional observations from a re-analysis of the deposited data

Results flagged for a closer look

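The response to emetine differed between the lines, by the line-by-treatment term of the F test, in 7 events, each given as the change in HMLE TWIST minus that in MCF10A. For SETD5 these were -0.267 for the 41-nt exon, -0.275 for the 137-nt exon, and -0.292 and -0.286 for 2 events of the 193-nt exon, which share the exon and part of its reads. For WHSC1 they were 0.201 for the 125-nt exon and -0.103 for the 94-nt exon, and for KMT2D 0.105 for the 48-nt exon. Limma gave adjusted p between 0.197 and 0.438 for all 7.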

How the results depend on the processing

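Limits come mainly from 2 replicates per group and a shared dispersion. Counts of called enzyme events fell with limma from 24 to 13 in MCF10A, from 34 to 22 in HMLE TWIST, and to 0 for the difference between the lines (from 7), the lines under DMSO (from 13) and the lines under emetine (from 26). A change of at least 0.05 gave 43 and 53 events in MCF10A and HMLE TWIST, and one of at least 0.2 gave 9 and 14, and 6 and 2 for the lines under DMSO and emetine. Over all 25522 tested events in MCF10A, 5457 passed with the 0.05 threshold, 3533 with 0.1 and 1596 with 0.2. With 0.2, 599 of all 19301 events passed for the lines under DMSO and 1145 of 28434 under emetine. Leaving out each library in turn gave 17 to 24 events in MCF10A, 23 to 30 in HMLE TWIST, 4 to 9 for the difference between the lines (4 without the second listed HMLE TWIST DMSO library), 8 to 12 under DMSO (8 without the second listed DMSO library of either line) and 17 to 22 under emetine (17 without the first listed HMLE TWIST emetine library). Among 99 calls of named exons no direction reversed in any of these refits. Limma ended 64 of them, the missing length correction 32, the event's own dispersion 8, and 52 kept their call without each left-out library that could be tested. The replicate block, with the first listed value as replicate 1, gave 24, 35, 8, 13 and 27 events in the 5 comparisons and ended no named call. Deviations of same-numbered libraries correlated at 0.039 and 0.027, so the numbers are not shown to pair the libraries. Unless a fit's own construction shows it (fewer libraries, a larger variance, a higher threshold, levels without the length correction), the cause was not tested. Events with few reads of the rarer form went untested, and 192 of the 394 were tested in neither line.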
